A study of Mus musculus with 4 samples.

Results

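Collagens are the 40 members described here, chosen as the genes of the deposited count table whose symbol has the form Col, a number, a, a number, and whose counts in the 4 libraries summed to 15 or more. The table held 44 such symbols among 23420 genes. The 4 left out were Col10a1 with 14 counts in all, Col9a1 with 12, and Col13a1 and Col4a4 with 11 each; the lowest inside the limit were Col11a1 with 17 counts and Col22a1 with 19. The members were sorted by textbook class into 11 fibrillar, 5 basement membrane, 6 beaded filament, 2 network, 8 FACIT, 2 multiplexin, 3 transmembrane and 3 other collagens. FACIT stands for fibril-associated collagens with interrupted triple helices.

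RNA was measured in β-cells of the mouse pancreas, sorted by flow cytometry after most β-cells had been ablated with doxycycline given for 10 days. The 2 groups were compared, each with 2 libraries: residual β-cells of Bmal1KO/DTA mice (here KO 1 and KO 2) and of Bmal1+/-DTA mice (here Het 1 and Het 2). Both groups thus carried the DTA transgene, for diphtheria toxin A, received doxycycline and lost β-cells, and the Het libraries still lack 1 Bmal1 allele; no library of unablated islets and no Bmal1 wild-type library enters these comparisons. The labels give no promoter for the toxin, no driver of the Bmal1 deletion, no age and no sex, and do not say whether each library came from a separate animal, so p-values measure the spread between these libraries.

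Library totals ranged from 31056116 to 38020488 counts, and 14649 genes entered the test. Levels are in CPM, counts scaled to the library size after correction by the trimmed mean of M-values (TMM), and a change is a log2 fold change of KO against Het. Ins2, the defining β-cell hormone gene, stood at 151722 to 194550 CPM in all 4 libraries. Arntl, the gene that encodes BMAL1, measured 75.8 CPM in KO 1 and 65.6 in KO 2, against 23.0 CPM in Het 1 and 15 in Het 2, and so was higher in both libraries labelled KO (log2 fold change 1.89, SE 0.24, adjusted p 0.0175). That direction goes against the label, and because the counts cover the whole gene they check nothing about a deleted part, so the groups are called the libraries labelled KO and Het throughout. The female-specific RNA Xist stood at 8.68 CPM in KO 1 and 38.8 in KO 2 against 72.3 and 67.5 in Het 1 and Het 2, and the Y-linked Ddx3y at 89.1, 23.8, 20.5 and 12.1 CPM in the same order. Both RNAs were counted in every library, as in a mix of sexes, though the labels state no pooling. Xist was lower and Ddx3y higher in both libraries labelled KO, with Ddx3y close between KO 2 and Het 1. The Y-linked Eif2s3y measured 136 CPM in KO 1, 32.3 in KO 2, 36.9 in Het 1 and 20.2 in Het 2. For Eif2s3y KO 2 thus lay below Het 1, and the groups overlapped. The labels were thus not balanced for these sex-linked RNAs, and the part of sex in the results was not tested.

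Collagens are secreted proteins in which α chains wind into a triple helix; to do so a chain repeats the triplet glycine, X, Y, with proline and hydroxyproline often at X and Y. Fibrillar collagens form the cables of the interstitial matrix and come mainly from fibroblasts, type IV collagen forms the sheet of basement membranes, type VI forms beaded filaments beside them, and FACIT collagens sit on fibril surfaces. In the islet, β-cells lie against a vascular basement membrane rich in type IV collagen that is made largely by endothelial and other stromal cells.

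The repeat is what the classes share and where they differ, so a stretch of 24 codons from the longest uninterrupted run is shown for the 7 members that passed the test and for Col3a1. The GGN codon, for glycine, that opens each triplet is in capitals (glycine at X or Y is left in lower case), and the sequences are those of the GENCODE M21 transcripts.
Col1a2 (codons 97 to 120): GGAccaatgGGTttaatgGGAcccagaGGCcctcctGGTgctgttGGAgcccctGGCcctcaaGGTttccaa
Col3a1 (codons 164 to 187): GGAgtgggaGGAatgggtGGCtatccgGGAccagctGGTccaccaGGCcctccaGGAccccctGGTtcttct
Col27a1 (codons 673 to 696): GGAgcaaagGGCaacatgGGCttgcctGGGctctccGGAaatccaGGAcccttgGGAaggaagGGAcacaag
Col4a1 (codons 43 to 66): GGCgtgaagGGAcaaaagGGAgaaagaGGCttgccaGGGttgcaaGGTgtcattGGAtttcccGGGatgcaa
Col4a2 (codons 777 to 800): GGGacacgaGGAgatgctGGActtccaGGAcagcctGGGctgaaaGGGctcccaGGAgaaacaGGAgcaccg
Col6a1 (codons 256 to 279): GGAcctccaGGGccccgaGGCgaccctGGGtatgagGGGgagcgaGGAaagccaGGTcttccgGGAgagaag
Col16a1 (codons 1006 to 1029): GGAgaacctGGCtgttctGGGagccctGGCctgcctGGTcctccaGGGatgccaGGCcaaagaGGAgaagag
Col18a1 (codons 953 to 976): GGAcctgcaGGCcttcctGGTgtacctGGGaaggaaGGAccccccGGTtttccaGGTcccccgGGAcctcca

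Every stretch of 24 codons opens each triplet with glycine because the runs were chosen that way. The length of the unbroken run set the fibrillar class apart. Fibrillar members had runs of 216 to 344 repeats, with 339 in Col1a2, 344 in Col3a1 and 217 in Col27a1. Basement membrane members had 39 to 66, beaded filament members 37 to 87 and FACIT members 32 to 113, so these ranges overlapped. Both multiplexins had 30, below those ranges. Col27a1 is therefore a fibrillar chain with a run shorter than that of the type I, II, III and V chains, which lay between 337 and 344.

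Of the 40 members, 34 had enough counts to be tested. In the libraries labelled KO, 5 were higher and 2 were lower, and 27 did not pass an adjusted p of 0.05; over all genes tested, 1.2% were higher, 1.34% lower and 2.54% in either direction. The 5 that rose were Col4a1 and Col4a2 of the basement membrane, Col6a1 of the beaded filaments, the multiplexin Col18a1 and the fibrillar Col1a2. The 2 that fell were the FACIT Col16a1 and the fibrillar Col27a1. The median log2 fold change of the 34 was 1.36, beside 0.024 over all genes tested. Both libraries labelled KO lay above both Het libraries for 18 of the 34 collagens and below them for 2; over all genes tested the shares were 25.3% and 23.8%. These shares describe a list chosen with earlier results of the data known and carry no test.

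The number of calls depended on the method. At an unadjusted p under 0.05, 14 collagens were higher and 2 lower, where 9.12% of all genes tested were higher, 7.75% lower and 16.9% in either direction. DESeq2 called 12 higher and 2 lower, where it called 4.23% of all genes higher, 3.82% lower and 8.05% in all. By limma-voom 4 were higher and 2 lower, where 1.12% of all genes were higher, 1.49% lower and 2.61% in either direction. With no filter on low counts all 40 members were tested, 12 were higher and 2 lower, and of all genes 2.4% were higher, 2.11% lower and 4.5% in either direction. These shares are the background for the counts by the same methods in each class and list.

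**Figure D1:**
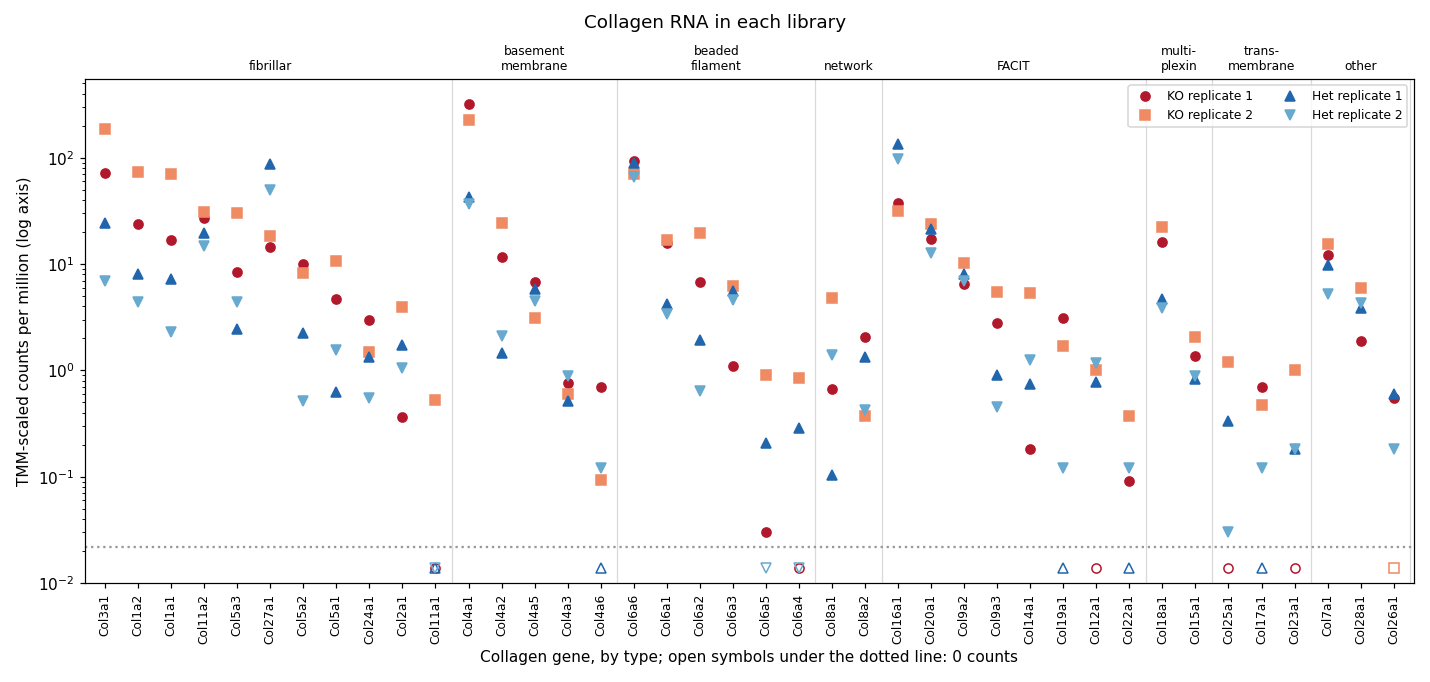
TMM-scaled CPM of each of the 40 collagen genes (log axis), by class, with 1 symbol per library; open symbols under the dotted line mark a count of 0. Col4a1 is highest in both libraries labelled KO (322 and 226 CPM), while Col16a1 and Col27a1 are the 2 genes with both KO symbols under both Het symbols.

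Type IV collagen is assembled from α chains encoded in head-to-head gene pairs. Col4a1, which encodes the most widespread chain, measured 322 CPM in KO 1 and 226 in KO 2, and 42.8 and 36.8 CPM in Het 1 and Het 2. The groups lay far apart: KO 1 was 8.09 times and KO 2 5.67 times the mean of the Het libraries (log2 fold change 2.78, SE 0.21, adjusted p 0.00807). Its partner Col4a2 measured 11.7 and 24.1 CPM in the libraries labelled KO and 1.45 and 2.12 CPM in the Het libraries (log2 fold change 3.33, SE 0.46, adjusted p 0.0187). Here KO 2, not KO 1, held the higher level. Without Het 2 the Col4a2 call was lost (adjusted p 0.0723), while Col4a1 passed with each library left out in turn (adjusted p 0.00188 to 0.0274).

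Col4a1 (chr8:11198423-11312826, minus strand) and Col4a2 (chr8:11312805-11449287, plus strand; GRCm38, GENCODE M21) start within each other's first exon. Their gene models overlap by 22 bases, printed because reads within it cannot be given to 1 gene of the pair without strand.
chr8:11312805-11312826, plus strand: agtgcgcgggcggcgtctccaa
Although they share this start, the chains were far from equal in RNA. Per kilobase of transcript Col4a1 stood 26.8 times above Col4a2 in KO 1, 9.14 times in KO 2, 28.8 times in Het 1 and 16.9 times in Het 2. The ratio ranged as widely between libraries of one label as between labels.

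The remaining type IV chains did not pass. Col4a5, a chain of specialised basement membranes such as that of the kidney glomerulus, measured 6.73 and 3.09 CPM in the libraries labelled KO and 5.84 and 4.48 CPM in the Het libraries, and the groups overlapped (adjusted p 0.964). Col4a3 lay between 0.516 and 0.878 CPM in the 4 libraries. Col4a6, head to head with Col4a5 on the X chromosome at a distance of 1308 bases, had 23, 3, 0 and 4 counts in KO 1, KO 2, Het 1 and Het 2 and was not tested. Col4a4, head to head with Col4a3 at 71 bases, was under the limit of 15 counts. Of the 4 tested type IV genes, the 2 calls were thus those of the pair Col4a1 and Col4a2.

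Fibrillar collagens were spread over 10 tested members, with 1 higher, 1 lower and 8 not passed. At an unadjusted p under 0.05, 7 were higher and 1 lower, and DESeq2 called 6. The 2 calls became 6 without KO 1, 5 without Het 1 and 1 without Het 2. Col1a2, the α2 chain of type I collagen, measured 24 CPM in KO 1 and 73.3 in KO 2, and 8.01 and 4.39 CPM in Het 1 and Het 2. Both KO levels lay above both Het levels, and KO 2 was about as far above KO 1 as KO 1 was above Het 1 (log2 fold change 2.97, SE 0.55, adjusted p 0.0432). The Col1a2 call was lost without Het 2 (adjusted p 0.158) and by limma-voom.

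Other chains of the same fibrils had both KO levels above both Het levels but missed the threshold. Col3a1, the type III chain of pliable connective tissue, measured 71.3 and 187 CPM in the libraries labelled KO and 24.3 and 6.93 CPM in the Het libraries (log2 fold change 3.04, SE 0.64, adjusted p 0.0640). Col1a1, the α1 chain of type I collagen, measured 16.9 and 70.4 CPM against 7.28 and 2.27 CPM (log2 fold change 3.18, SE 0.76, adjusted p 0.0878). In both genes the highest Het library was within 3-fold of the lowest KO library, and the libraries within each label were spread by more than 2-fold. Type V chains, which start the fibrils of type I collagen, likewise had non-overlapping groups: Col5a1 measured 4.69 and 10.6 CPM against 0.620 and 1.54 CPM, Col5a2 9.96 and 8.31 CPM against 2.25 and 0.515 CPM, and Col5a3 8.49 and 30.2 CPM against 2.43 and 4.42 CPM. Their adjusted p-values were 0.0795, 0.0974 and 0.0978.

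Col3a1 and Col5a2 are neighbours on chromosome 1, tail to tail and 24614 bases apart, yet KO 2 was 2.62 times KO 1 for Col3a1 and 0.834 times KO 1 for Col5a2. The ratio of Col1a1 to Col1a2 per kilobase was 0.633 in KO 1, 0.867 in KO 2, 0.820 in Het 1 and 0.466 in Het 2. Type I collagen protein holds 2 α1 chains for 1 α2 chain; the RNA ratio was under 1 in each library. Col3a1 stood 2.83 to 4.50 times above Col1a1 per kilobase in the 4 libraries.

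Col27a1 was the fibrillar chain that fell. This chain, known from cartilage, measured 14.5 and 18.4 CPM in the libraries labelled KO and 86.9 and 50.1 CPM in the Het libraries. KO 1 was at 0.212 and KO 2 at 0.268 of the Het mean, and the groups did not overlap (log2 fold change -2.06, SE 0.29, adjusted p 0.0203). The call held with each library left out in turn (adjusted p 0.0184 to 0.0376).

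The remaining fibrillar members did not pass. Col11a2, a cartilage fibril chain, measured 27.3 and 31.2 CPM against 19.7 and 14.8 CPM, with groups that did not overlap (log2 fold change 0.76, adjusted p 0.154). Col24a1 measured 2.95 and 1.5 CPM against 1.34 and 0.545 CPM (adjusted p 0.491). Col2a1, the main cartilage collagen, measured 0.365 CPM in KO 1 and 3.90 in KO 2, on both sides of the 1.73 and 1.06 CPM of the Het libraries. Col11a1 had 17 counts in KO 2 and 0 in the other libraries, each of which allows up to 3 counts.

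Beaded filaments of type VI collagen join basement membranes to the interstitial matrix and are built from α1, α2 and an α3-like chain. Col6a1 measured 15.8 and 17.0 CPM in KO 1 and KO 2 and 4.21 and 3.36 CPM in Het 1 and Het 2, the closest agreement between the libraries labelled KO among the genes that rose (log2 fold change 2.11, SE 0.30, adjusted p 0.0207). The call was lost without Het 1 (adjusted p 0.0524) and without Het 2 (adjusted p 0.130). Col6a2, on the same strand of chromosome 10 at a distance of 85161 bases, measured 6.76 and 19.4 CPM against 1.94 and 0.636 CPM and missed the threshold (log2 fold change 3.33, SE 0.70, adjusted p 0.0633).

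The α3-like chains behaved differently from these. Col6a6 measured 92.4 and 70.8 CPM in the libraries labelled KO and 89.8 and 66.4 CPM in the Het libraries, so the groups overlapped fully (log2 fold change 0.06, SE 0.21, adjusted p 0.923). Per kilobase it had rank 3 among the 40 collagens by mean level in either label. Col6a3, the usual α3 chain, measured 1.10 CPM in KO 1, 6.15 in KO 2, 5.63 in Het 1 and 4.54 in Het 2. Its ratio to Col6a1 per kilobase was 0.0315 in KO 1, 0.165 in KO 2, 0.609 in Het 1 and 0.616 in Het 2. On chromosome 9, Col6a5 lies 27917 bases from Col6a6, and Col6a4 28810 bases from Col6a5. Neither was tested: Col6a4 had 0, 27, 11 and 0 counts and Col6a5 1, 29, 8 and 0 counts in KO 1, KO 2, Het 1 and Het 2.

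FACIT collagens held 7 tested members, with 0 higher, 1 lower and 6 not passed; at an unadjusted p under 0.05, 2 were higher and 1 lower, and DESeq2 called 3 of the 7. Col16a1, a fibril-associated chain found in several connective tissues, was the collagen with the highest level per kilobase in the Het libraries. It measured 37.7 and 31.3 CPM in KO 1 and KO 2 and 135 and 97.0 CPM in Het 1 and Het 2. KO 1 was at 0.325 and KO 2 at 0.270 of the Het mean (log2 fold change -1.75, SE 0.21, adjusted p 0.0145). The call held with each library left out in turn (adjusted p 0.00986 to 0.0284).

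Other FACIT genes were lower in level. Col19a1, a chain of basement membrane zones, had 103 counts in KO 1 and 54 in KO 2 against 0 in Het 1 and 4 in Het 2, with an adjusted p of 0.0991; its neighbour Col9a1, 9205 bases away, was under the limit of 15 counts. Col9a3, a cartilage FACIT chain, measured 2.77 and 5.46 CPM against 0.904 and 0.454 CPM (adjusted p 0.111); its gene model shares exon bases with Tcfl5, so without strand its counts are uncertain. Col9a2 measured 6.45, 10.3, 8.11 and 6.96 CPM and Col20a1 17.3, 23.9, 21.3 and 12.7 CPM in KO 1, KO 2, Het 1 and Het 2, with overlapping groups. Col14a1 and Col12a1, which coat type I fibrils, separated the libraries labelled KO: Col14a1 measured 0.183 CPM in KO 1 and 5.37 in KO 2, and Col12a1 had 0 counts in KO 1 and 32 in KO 2. Both Het libraries lay between those levels for Col14a1 (0.749 and 1.24 CPM). For Col12a1, Het 1 and Het 2 had 30 and 39 counts (0.775 and 1.18 CPM), on both sides of the 0.999 CPM of KO 2. Col22a1 had 3, 12, 0 and 4 counts in KO 1, KO 2, Het 1 and Het 2.

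Multiplexins are basement membrane proteoglycans, and Col18a1 is the gene whose protein releases endostatin. Col18a1 measured 16.2 and 22.1 CPM in KO 1 and KO 2 and 4.73 and 3.87 CPM in Het 1 and Het 2 (log2 fold change 2.15, SE 0.31, adjusted p 0.0207). KO 1 was 3.77 times and KO 2 5.13 times the Het mean, and the call was lost without Het 2 (adjusted p 0.124). Col15a1, the related chain, measured 1.37 and 2.06 CPM against 0.826 and 0.878 CPM (adjusted p 0.556).

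Network, transmembrane and other collagens held 7 tested members and gave 0 calls; 0 had an unadjusted p under 0.05, and DESeq2 called 0. The network chains of type VIII were split between libraries: Col8a1 measured 0.670, 4.84, 0.103 and 1.39 CPM and Col8a2 2.04, 0.375, 1.34 and 0.424 CPM in KO 1, KO 2, Het 1 and Het 2. Col7a1, which forms the anchoring fibrils of epithelia, measured 12.1 and 15.4 CPM against 9.73 and 5.18 CPM (adjusted p 0.296). Col28a1 measured 1.89, 5.96, 3.82 and 4.30 CPM in the same order. Col26a1 had 18, 0, 23 and 6 counts. Of the transmembrane chains, Col17a1, a part of hemidesmosomes, had 23, 15, 0 and 4 counts, Col25a1 had 0, 38, 13 and 1, and Col23a1 had 0, 32, 7 and 6.

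Per kilobase of transcript the order of the collagens differed between the labels. In the libraries labelled KO the highest were Col4a1 (48.6 and 34.1 CPM per kilobase), Col3a1 (12.8 and 33.6), Col6a6 (10.5 and 8.06) and Col1a2 (4.49 and 13.7). Col4a1 and Col3a1 were nearly level in KO 2, and Col6a6 and Col1a2 changed places between the 2 libraries. Col3a1 lay above Col6a6 in both, though narrowly in KO 1. Differences between genes in this order were not tested. In the Het libraries Col16a1 was highest (25.9 and 18.6 CPM per kilobase), followed by Col27a1 (11.4 and 6.59), Col6a6 (10.2 and 7.56) and Col4a1 (6.46 and 5.56). Col27a1 and Col6a6 changed places between Het 1 and Het 2. Summed over members, collagen RNA came to 742 and 937 CPM in KO 1 and KO 2 and to 496 and 342 CPM in Het 1 and Het 2.

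**Figure D2:**
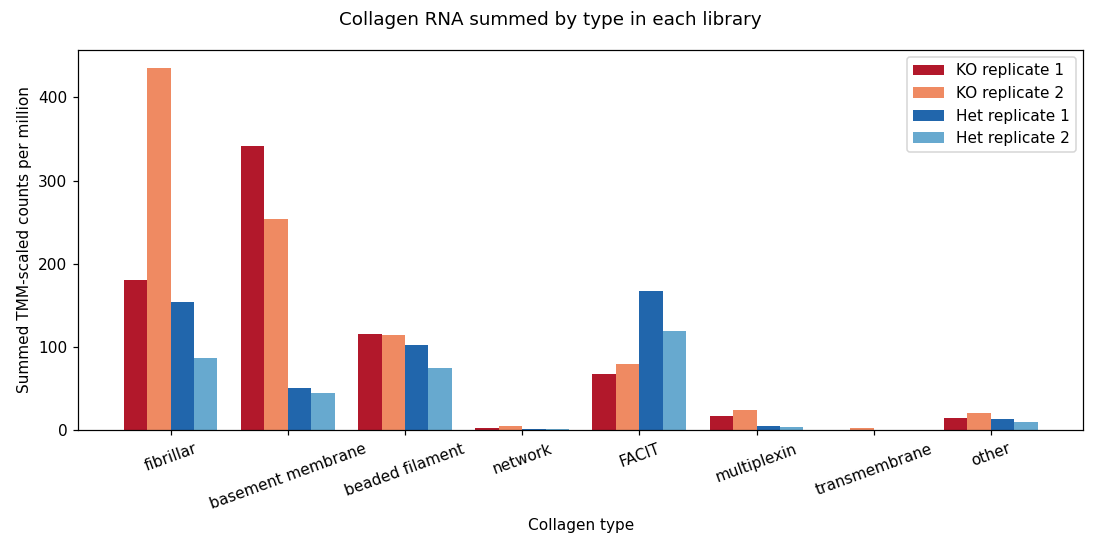
Summed TMM-scaled CPM of the collagen members of each class, with 1 bar per library and the axis starting at 0. Basement membrane collagens sum to 342 CPM in KO 1, 254 in KO 2, 50.6 in Het 1 and 44.4 in Het 2, and the FACIT sums, lower in both libraries labelled KO, are made up mostly of Col16a1 in the Het libraries.

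The class sums show which class each library labelled KO was rich in. Basement membrane collagens summed to 342 CPM in KO 1 and 254 in KO 2, against 50.6 and 44.4 CPM in the Het libraries. Fibrillar collagens summed to 180 CPM in KO 1 and 435 in KO 2, against 155 and 86.6 CPM, so KO 1 was close to Het 1 and KO 2 well above it. FACIT collagens summed to 67.7 and 79.5 CPM against 167 and 120 CPM, but that gap was Col16a1: the other 7 FACIT members summed to 30.0 CPM in KO 1, 48.2 in KO 2, 31.8 in Het 1 and 22.8 in Het 2, and of the 7 FACIT genes tested, Col16a1 included, 5 had a fitted value above 0. Beaded filament collagens, 116 and 115 CPM against 102 and 74.9 CPM, were carried mostly by Col6a6.

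The libraries labelled KO were then set against the Het libraries one at a time; both comparisons use the same Het libraries and are given side by side, and a lone library is taken to vary like the Het pair. With KO 1 alone, 34 collagens were tested, 5 higher and 2 lower, where 5.43% of all genes tested were called, 2.66% higher and 2.77% lower. With KO 2 alone, 39 were tested, 10 higher and 2 lower, where 3.69% of all genes tested were called, 1.94% higher and 1.75% lower. Over the 33 members fitted in each of these comparisons and with all 4 libraries, the median log2 fold change was 0.70 with KO 1 alone, 1.46 with KO 2 alone and 1.23 with all 4. Over all genes tested it was 0.0063 and -0.0090 with KO 1 and KO 2 alone. The genes called with KO 2 alone and not with KO 1 alone were Col1a1, Col3a1, Col5a1, Col5a3 and Col6a2. For Col1a1 the log2 fold change was 1.81 with KO 1 alone (adjusted p 0.140) and 3.85 with KO 2 alone (adjusted p 0.0115), and for Col3a1 2.18 (adjusted p 0.0885) and 3.55 (adjusted p 0.0188). Col6a2 had 2.38 (adjusted p 0.105) and 3.88 (adjusted p 0.0150). The difference between KO 1 and KO 2 itself was not tested, since each is 1 library. With both libraries labelled KO against Het 1 alone, 1 collagen was higher and 2 were lower, where 0.162% of all genes tested were called, 0.11% higher and 0.0518% lower. Against Het 2 alone, 8 were higher and 2 lower, where 1.45% of all genes tested were called, 0.84% higher and 0.612% lower.

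**Figure D3:**
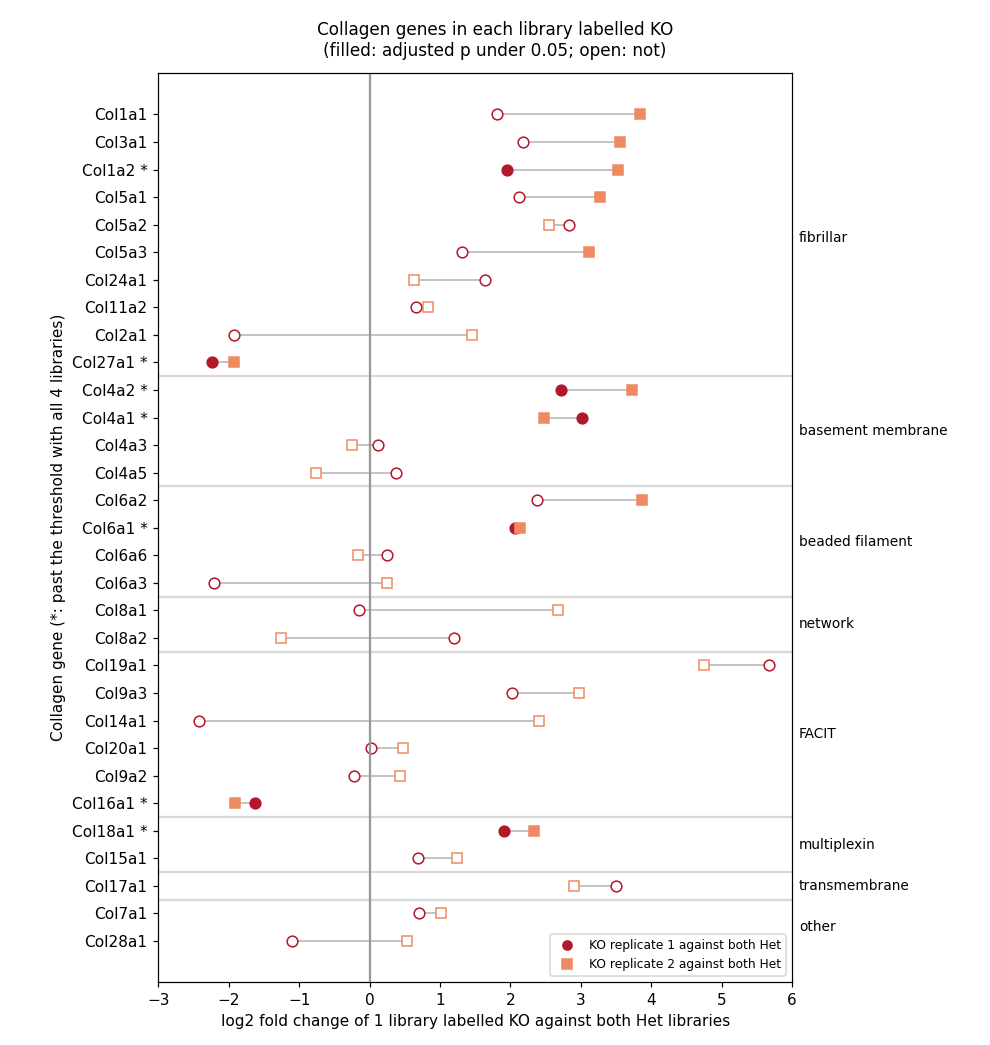
Fitted log2 fold change of KO 1 (circles) and of KO 2 (squares) against both Het libraries for the 31 tested collagen genes with counts in both libraries labelled KO, grouped by class. Fibrillar chains other than Col27a1 lie mostly further right in KO 2, as Col1a1 at 1.81 and 3.85, while Col4a1, Col6a1, Col16a1, Col18a1 and Col27a1 have both symbols close together.

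Among the 30 members with 100 counts or more in all, 13 were over 2-fold higher in KO 2 than in KO 1 and 2 were over 2-fold higher in KO 1. Between the Het libraries, 6 were over 2-fold higher in Het 1 and 3 in Het 2. Of these members, the widest gaps between the libraries labelled KO were in Col12a1, Col14a1, Col2a1, Col8a1 and Col6a3, each higher in KO 2. Col4a1 was one of the genes with the reverse order, 322 CPM in KO 1 and 226 in KO 2.

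Collagen chains are hydroxylated and folded in the endoplasmic reticulum, then trimmed, crosslinked and dressed with proteoglycans outside the cell, and later bound by receptors or degraded. Of 24 tested genes for modification in the endoplasmic reticulum, 0 passed by edgeR, with 1 higher and 6 lower at an unadjusted p under 0.05, 4 called by DESeq2 and 1 by limma-voom; the median log2 fold change was -0.27. Nearest to the threshold was P4ha2, a prolyl hydroxylase subunit, at 33.7 and 43.2 CPM in KO 1 and KO 2 and 70.6 and 74.4 CPM in the Het libraries (log2 fold change -0.92, adjusted p 0.0519). Leprel2, a prolyl 3-hydroxylase, stood at 24.1 and 25.1 CPM against 6.69 and 12.5 CPM (adjusted p 0.0920). Of the 24, 7 had a fitted value above 0, where 26 of the 34 collagens did.

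Of 12 tested genes for cleavage and crosslinking, 1 was higher and 0 lower. It was Sparc, a collagen-binding matrix protein, with 20.7 and 49.4 CPM in KO 1 and KO 2 and 7.62 and 7.23 CPM in the Het libraries (log2 fold change 2.24, SE 0.40, adjusted p 0.0401). Of 7 tested fibril-binding proteoglycans, 1 was higher and 0 lower: Lum, or lumican, had 146 and 166 counts against 4 and 12 (log2 fold change 4.37, SE 0.76, adjusted p 0.0358). Both calls were lost without Het 1, without Het 2 and by limma-voom. Of 10 tested receptors and uptake genes, 0 passed by edgeR, 0 had an unadjusted p under 0.05, and DESeq2 and limma-voom called 0. Of 9 tested genes for collagen breakdown, 0 passed by edgeR, with 3 higher at an unadjusted p under 0.05, 2 called by DESeq2 and 0 by limma-voom. Among the 3, Fap had 0 counts in both Het libraries and entered the test only through the libraries labelled KO. The matrix metalloproteinase Mmp14, which cleaves fibrillar collagen at the cell surface, stood at 10.4 and 24.9 CPM against 4.34 and 5.33 CPM (adjusted p 0.0878).

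**Figure D4:**
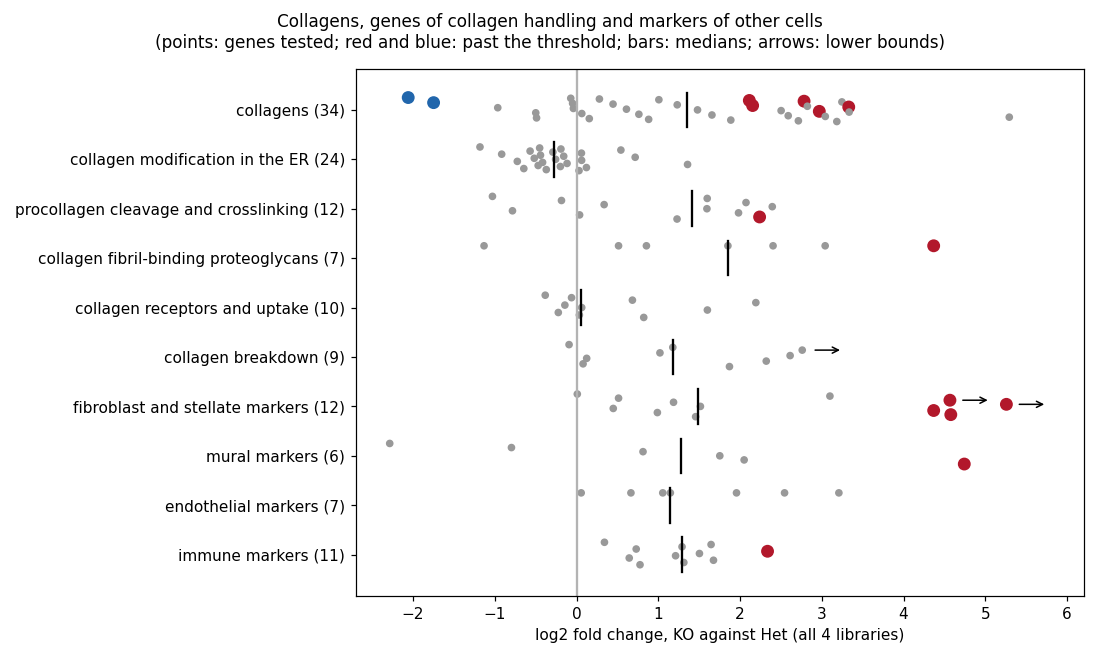
Fitted log2 fold change of KO against Het for each tested gene of the collagens, the lists of collagen handling and the marker lists, with black bars at list medians and numbers of genes tested in brackets; arrows mark genes at 0 counts in both Het libraries, drawn at their lower bound. The collagen median is 1.36 and that of modification in the endoplasmic reticulum -0.27.

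Markers of other cells were counted in the same libraries. In bulk samples, fewer cells of a type and less RNA per cell cannot be told apart. Of 20 fibroblast and stellate cell markers 12 were tested, 4 were higher and 0 lower: Fn1, Lum, Pdgfra and Twist2, of which Lum also counts among the proteoglycans. Pdgfra and Twist2 had 0 counts in both Het libraries and passed the filter only through the libraries labelled KO. Their direction was thus fixed once they entered the test. Lum, with 4 and 12 counts in Het 1 and Het 2, also needed the libraries labelled KO to enter. Summed over the list these markers came to 140 and 170 CPM in KO 1 and KO 2 and to 116 and 110 CPM in the Het libraries. Gsn, the gelsolin gene, made up most of this at 87.7, 103, 91.0 and 98.9 CPM in KO 1, KO 2, Het 1 and Het 2; the other 19 summed to 52.8 and 67.1 CPM against 24.5 and 11 CPM. Pdgfra, Thy1, Tcf21, Twist2, Prrx1 and Des were at 0 counts in both Het libraries. Of these, Thy1 had only 6 and 0 counts in KO 1 and KO 2, Tcf21 0 and 7, Prrx1 0 and 1, and Des 0 and 2. Those genes were near 0 under either label and were not tested. Pdgfra, the receptor that defines fibroblasts, had 37 counts (1.13 CPM) in KO 1 and 170 (5.31 CPM) in KO 2. The mean of the libraries labelled KO was at least 38.2-fold higher than Het, against a floor of 3 counts in each Het library. This bound holds for the mean and not for KO 1 alone. Twist2 had 93 and 37 counts (2.83 and 1.16 CPM), with a mean at least 23.7-fold higher, a bound that does not hold for KO 2 alone. Fn1, the fibronectin gene, measured 19.3 and 9.71 CPM against 0.258 and 0.969 CPM (log2 fold change 4.58, SE 0.68, adjusted p 0.0230). Fn1 passed with each library left out in turn. Lum was lost without either Het library, Pdgfra also without KO 2 (adjusted p 0.107) and Twist2 also without KO 1 (adjusted p 0.122), so that 1 marker was called without Het 1 and 1 without Het 2; limma-voom called 2.

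Mural markers summed to 17.5 and 9.74 CPM in KO 1 and KO 2 and 5.11 and 4.06 CPM in the Het libraries. Among 6 tested, 1 was higher, Abcc9, a call lost without KO 1, without Het 1, without Het 2 and by limma-voom. Fitted values were above 0 for 4 of the 6, and below 0 for Cspg4 (log2 fold change -2.29) and Notch3 (-0.80), which did not pass. Acta2, not tested, had 101 counts in KO 1, 1 in KO 2, 3 in Het 1 and 2 in Het 2. Endothelial markers summed to 49.7 and 26.0 CPM against 18.6 and 14.2 CPM, with Erg at 0 counts in all 4 libraries; 0 of 7 tested passed by edgeR, 3 had an unadjusted p under 0.05, all higher, DESeq2 called 2, limma-voom 0 and edgeR 2 without KO 2. Immune markers summed to 171 and 607 CPM against 142 and 137 CPM, and 1 of 11 tested, Cd14, was higher. Without KO 1 the immune calls were 7, and without Het 2 they were 0. Of 14 β-cell markers, 0 were higher and 4 lower, namely Glp1r, Ucn3, G6pc2 and Slc30a8. Of these, 3 passed without Het 1 and 0 without Het 2 (adjusted p 0.0557 to 0.127). Between the libraries labelled KO the marker genes followed no single order: Pdgfra and the endothelial gene Eng (1.95 CPM in KO 1 and 4.68 in KO 2) were higher in KO 2, and Twist2, Fn1 and the endothelial gene Pecam1 (5.54 and 1.69 CPM) in KO 1. The part of these cells in the collagen results was not tested.

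Of the other lists, 1 of 10 tested Schwann and neuronal markers (Tubb3) and 1 of 9 other islet cell markers (Irx2) were higher, and 0 were lower. Both calls were lost without Het 1 (adjusted p 0.152 and 0.0693) and without Het 2 (0.298 and 0.0911), and Tubb3 also without KO 1; other islet calls were 4 without KO 1 and 5 by DESeq2. Of 9 duct markers 0 passed by edgeR, with 2 higher and 1 lower at an unadjusted p under 0.05, 2 called by DESeq2 and 1 by limma-voom. Of 10 acinar markers 0 passed by edgeR, with 3 higher and 1 lower at an unadjusted p under 0.05, 2 called by DESeq2 and 0 by limma-voom.

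Because BMAL1 binds DNA with CLOCK at the E-box CACGTG, the start regions of the collagens were searched, on both strands, for that motif and for 2 common promoter elements. RefSeq windows of 300 bases (250 before to 50 after the start, GRCm38.p6) were at hand for 31 of the 40 members, 33 windows in all. CACGTG was in 0 of the 33 windows, beside 7.15% of all 32851 windows. CCAAT was in 12 of the 33 (36.4%), beside 37.4% of all. GGGCGG, the GC box, was in 23 of the 33 (69.7%), beside 35.7% of all. The 250 bases before the start are printed for the 2 genes that fell, with CCAAT and GGGCGG, read on either strand, in capitals.
Col16a1, chr4:130047590-130047839, plus strand: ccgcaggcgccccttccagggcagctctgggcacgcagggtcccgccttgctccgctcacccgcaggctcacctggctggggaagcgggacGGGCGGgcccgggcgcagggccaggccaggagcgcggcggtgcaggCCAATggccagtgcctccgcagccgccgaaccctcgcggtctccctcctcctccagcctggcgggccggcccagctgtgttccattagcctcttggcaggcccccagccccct
Col27a1, chr4:63215162-63215411, plus strand: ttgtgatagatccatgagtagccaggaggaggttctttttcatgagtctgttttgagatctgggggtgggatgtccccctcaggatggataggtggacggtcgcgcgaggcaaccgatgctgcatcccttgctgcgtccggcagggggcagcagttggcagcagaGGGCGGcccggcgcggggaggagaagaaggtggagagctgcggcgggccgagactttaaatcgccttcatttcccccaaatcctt
Each window held 1 GC box in this part, and Col16a1 also held 1 CCAAT box. The starts are those of RefSeq. GENCODE M21 starts the Col27a1 gene model earlier, at chr4:63214004, so the Col27a1 stretch lies within that model. A match is a match of letters and not a bound site, and a window without a match says nothing of the factor elsewhere.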

How the data were processed

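Total RNA of 4 samples was isolated with a Qiagen micro kit and made into libraries with SMART-Seq v4, which keeps no strand, per the labels' protocols. The submitters' processing notes list STAR, edgeR and mm10 without roles. The counting program, strand setting and annotation were not given in the sources used here. Raw counts per gene symbol, as deposited by the authors, were used; the authors' scaled table was not.

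Genes were kept by filterByExpr at a minimum count of 10 and a minimum total of 15. After TMM scaling, edgeR 4.0.16 (glmQLFit, then glmQLFTest; R 4.3.3) was run on the 4 libraries with a single term for the group. P-values are 2-sided and adjusted by Benjamini-Hochberg over the 14649 genes tested, with 0.05 as the threshold. SE was derived from the test, as the absolute log2 fold change divided by the square root of its F statistic. Residual degrees of freedom were 2 and prior ones 5.12, the biological coefficient of variation was 0.297, and the test was tried on simulated data. Levels per kilobase use the GENCODE M21 transcript with the longest coding sequence. Floors of 3 counts cover counting error only. Alternatives were other scalings and filters, DESeq2 1.42.0, limma 3.58.1 (voom), a replicate block and leaving out each library.

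Members and lists were chosen with earlier results of these data known. By rule the text names members past the threshold, the highest 3 of each class, neighbouring pairs, the 5 widest gaps between libraries labelled KO, and from the other lists genes past the threshold or those of smallest p. Members outside this rule are named to account for the classes.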

Additional observations from a re-analysis of the deposited data

How the results depend on the processing

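The 2 lower collagens were called under all 12 alternatives, and Col4a1 likewise. The count of collagen calls (7, of them 5 higher) was 14 (12 higher) with no filter on low counts and 14 (12 higher) by DESeq2, and ranged from 3 to 12 (1 to 10 higher) with 1 library left out, the lowest without Het 2 and the highest without KO 1. The count in the lists of collagen handling (2) was 7 with no filter, 10 by DESeq2 and 1 by limma-voom, and ranged from 0 to 5 with 1 library left out. The collagen median log2 fold change (1.36) was 0.94 by limma-voom and ranged from 0.70 without KO 2 (33 members fitted) to 1.80 without KO 1 (34 fitted). Over the genes tested, same-numbered libraries did not deviate together (correlation -0.019). With 2 libraries per group, 1 value over all genes cannot show whether the numbers pair libraries for some genes, and the labels do not say. With the replicate block the collagen calls were 12 (10 higher), where 4.03% of all genes (2.14% higher) were called. The calls in collagen handling were then 6, and the collagen median 0.96. Depth limits the 6 untested members and others of few counts. The cause of these shifts was not tested.

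No called collagen changed direction. Of the members not called, 13 reversed with some library left out, where their log2 fold changes ranged from -8.10 to 0.0066 for Col12a1, -2.42 to 2.41 for Col14a1, -0.059 to 0.70 for Col20a1, -6.77 to 0.58 for Col26a1, -1.11 to 0.53 for Col28a1, -1.93 to 1.46 for Col2a1, -0.38 to 0.38 for Col4a3, -0.76 to 0.38 for Col4a5, -2.21 to 0.25 for Col6a3, -0.17 to 0.29 for Col6a6, -0.15 to 4.67 for Col8a1, -1.26 to 1.5 for Col8a2 and -0.23 to 0.43 for Col9a2. The -8.10 of Col12a1 and the -6.77 of Col26a1 came from fits whose only library labelled KO had 0 counts, so their size was not measured. Col28a1 was at 0.011 and Col4a3 at 0.016 with library sizes only, and by limma-voom Col4a3 was at 0.024 and Col2a1 at -0.20. Col2a1 was at -0.10 with the replicate block.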
